A study of Mus musculus with 47 samples.

Results

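Brown adipose tissue (BAT) and inguinal white adipose tissue (IWAT) were compared in the mice that ate a methionine-restricted diet, to find which differences between the depots remained on that diet. The members were 12 of the 47 libraries in the series, 6 of BAT and 6 of IWAT, and every gene was read in each. All libraries came from male C57BL/6J mice that were 5 weeks old when the diets began, ate the restricted or the control diet at will for 11 weeks at 23 C and were fasted for 5 h before tissue collection. Each diet had 6 mice, and each mouse gave a BAT and an IWAT library. No allele or agent other than the diet is named for any group. The 12 control-diet libraries of the same depots were used for comparison. Libraries were made with a SOLiD SAGE kit from 7 to 12 ng of total RNA, and 1 tag was counted near the 3' end of each transcript, so a value does not scale with transcript length and levels of different genes were not ranked against each other.

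Brown adipocytes burn fuel to make heat. Their mitochondria carry UCP1, which lets protons return to the matrix without making ATP, and noradrenaline drives the process through beta-adrenergic receptors, cyclic AMP and the coactivator PGC-1alpha. White adipocytes store triglyceride and secrete hormones such as leptin. Inguinal fat can gain brown-like (beige) adipocytes under cold, and methionine restriction is known to raise Ucp1 in this depot. The depots also differ in embryonic origin, which leaves a lasting pattern of position genes.

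Depth was 6791568 to 8261434 counts in the BAT libraries and 5244354 to 6767093 in the IWAT libraries of restricted mice. Library MR3116 of IWAT stood apart. Its median Spearman correlation with the other IWAT libraries was 0.672 over the tested genes, where 9 of the 12 IWAT libraries of both diets reached 0.863 or more. It detected 11917 genes, against 14685 to 15624 in the other 5, and 511 of the 5616 genes with a mean of at least 100 counts in those 5 had 3 counts or fewer in it. Libraries CON3106 and CON3115 of control IWAT also stood apart, with correlations of 0.658 and 0.744. Results are therefore given with all libraries and, where the call or a count changed by over 1.5 times, without these.

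The depot labels matched the markers. Ucp1 lay between 3716 and 6534 CPM in BAT (the library-scaled tag count, with scaling over all 24 fat libraries), with a median of 5288, and between 980 and 2190 CPM in IWAT, with a median of 1483. Lep, which encodes leptin, lay between 2.52 and 12.0 CPM in BAT and between 33.8 and 97.6 CPM in 5 IWAT libraries, but at 0.893 CPM in MR3116 of IWAT. The groups did not overlap for Ucp1, and for Lep they overlapped through that library alone. In bulk tissue, fewer cells of a type and less RNA per cell cannot be told apart, and this holds for every level below.

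Markers of other cell types also moved with depot. Of 40 skeletal muscle markers, 31 were tested and 30 were higher in BAT, with a median log2 fold change of 5.11. Their summed level ran from 997 to 16688 CPM in BAT and from 278 to 1146 CPM in IWAT. Muscle signal was lowest in MR3104 of BAT, at 997 CPM. The same library held the highest Ucp1, 6534 CPM, and the highest sum of the thermogenic program, 19182 CPM, of which Ucp1 is a part. The mean log2 CPM of the program in MR3104 was 6.94, inside the BAT range of 6.79 to 7.02. On the IWAT side, 10 of 22 hepatocyte markers, 4 of 23 T cell markers and 3 of 21 B cell markers were tested. All of these were higher than in BAT, and 5, 3 and 3 were with the animal as a block. A marker near 0 in 1 depot passes the count filter only through the other. The directions among tested markers, muscle included, were thus partly fixed by the filter and are not separate support. The B cell sum was 1474, 1470 and 1204 CPM in MR3102, MR3104 and MR3113 of IWAT, 25.0 to 79.0 CPM in the other 3, and 8.49 to 13.8 CPM in BAT. These 3 libraries also held the highest T cell sums, 486 to 659 CPM. The part of muscle, lymphoid or hepatocyte RNA in any gene's depot difference was not tested.

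**Figure D1:**
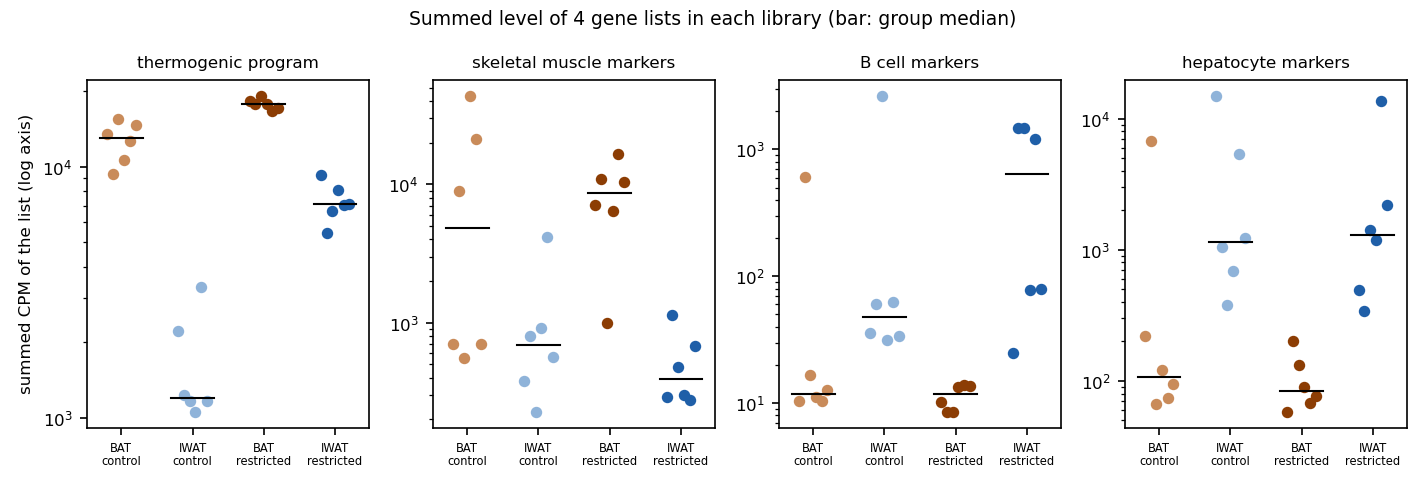
Summed CPM (log axis) of 4 gene lists in each of the 24 libraries by depot and diet, with the group median as a bar. On the restricted diet the thermogenic sums of BAT (16679 to 19182 CPM) lie above those of IWAT (5442 to 9309 CPM), the muscle sums are high in 5 of 6 BAT libraries, and the B cell sums are high in 3 of 6 IWAT libraries.

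Across all genes, more were higher in IWAT than in BAT. Of 10689 genes tested, 586 were higher in BAT (5.48%) and 1096 were higher in IWAT (10.3%) by edgeR's quasi-likelihood test, with p adjusted by Benjamini-Hochberg and a threshold of 0.05. The median log2 fold change over all tested genes was -0.04. Without MR3116 of IWAT, the test called 1631 of 10981 genes higher in BAT (14.9%) and 2047 higher in IWAT (18.6%), and these included 586 of the 586 and 1095 of the 1096 genes above. With the animal as a block, since each mouse gave both depots, 265 genes were higher in BAT (2.48%) and 570 in IWAT (5.33%). The 6 BAT values lay wholly above the 6 IWAT values for 642 genes (6.01% of those tested) and wholly below them for 631 genes (5.9%).

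**Figure D2:**
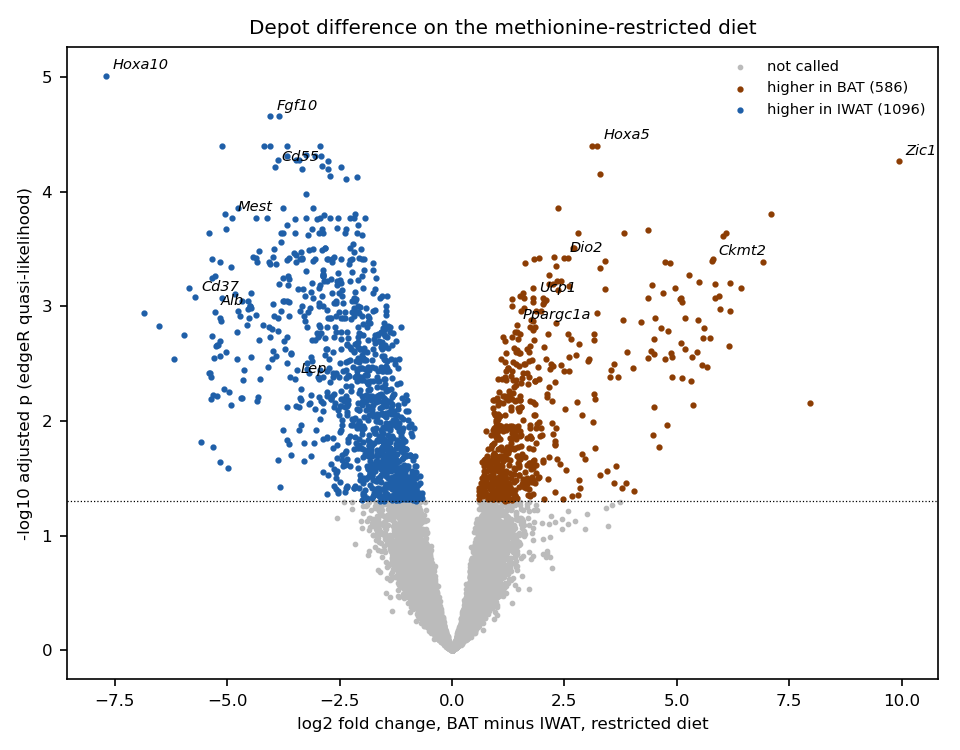
Log2 fold change of BAT minus IWAT on the restricted diet (x axis) against -log10 adjusted p from edgeR's quasi-likelihood test (y axis) for the 10689 tested genes, with the threshold as a dotted line. The 586 genes higher in BAT and the 1096 higher in IWAT are coloured, and Zic1 and Hoxa10 lie at the edges.

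Several genes of embryonic position differed between the depots. Zic1, a zinc finger factor of dorsal mesoderm, lay between 9.69 and 33.5 CPM in BAT, with a median of 17.4, and had 0 counts in all 6 IWAT libraries. With a floor of 3 counts per IWAT library, Zic1 was at least 38.0-fold higher in BAT (adjusted p = 5.37e-05). Hoxa5 lay between 31.8 and 54.4 CPM in BAT and between 2.39 and 6.25 CPM in IWAT, a log2 fold change of 3.22 ± 0.28 (SE, adjusted p = 3.95e-05). Hoxa10, a more posterior gene of the same cluster, was the reverse. It was at 0 to 0.266 CPM in BAT and between 14.8 and 23.2 CPM in all 6 IWAT libraries, MR3116 included (log2 fold change -7.69 ± 0.55, adjusted p = 9.7e-06, the smallest of all tested genes). Hoxc8 lay between 9.61 and 34.1 CPM in BAT and between 42.4 and 90.6 CPM in IWAT, without overlap, with a log2 fold change of -1.87 ± 0.32 (adjusted p = 0.00136).

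Posterior genes of the Hoxc cluster were seen in IWAT only at low levels. Hoxc10 was at 0 to 0.161 CPM in BAT and 0.446 to 6.87 CPM in IWAT, and Hoxc9 was at 0 in all 6 BAT libraries and at 0 to 11.6 CPM in IWAT. Neither passed the count filter with all 12 libraries. Without MR3116 both did, with log2 fold changes of -6.04 (adjusted p = 9.3e-06) for Hoxc10 and -8.59 (adjusted p = 2.84e-05) for Hoxc9. The last value depends on the prior count, since no BAT library held a tag. Of the 65 position genes listed, 25 were tested, with 6 higher in BAT and 4 higher in IWAT (median 0.02), 9 and 7 of 28 without MR3116, and 5 and 2 with the block. The shares of all genes were 5.48% and 10.3%, 14.9% and 18.6%, and 2.48% and 5.33%, and the IWAT counts were near theirs. Tbx15, a factor of both brown and inguinal adipocytes, was at 0.32 to 5.49 CPM in BAT and 0 to 4.03 CPM in IWAT, and was not called (log2 fold change 0.60 ± 0.63, adjusted p = 0.569).

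The heat-producing genes were higher in BAT on the restricted diet. Of 29 tested genes of the thermogenic program, 15 were higher in BAT and 0 in IWAT, with a median log2 fold change of 1.05 against -0.04 over all genes. Without MR3116 of IWAT, 27 of 29 were higher in BAT, with a median of 1.15. Ucp1 itself differed by 1.79 ± 0.28 on the log2 scale (3.47-fold, adjusted p = 0.000844), and BAT exceeded IWAT in 6 of 6 mice. The Ucp1 difference without MR3116 was 1.69 (adjusted p = 0.000143).

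Signals that drive the program were mixed. Dio2, which makes active thyroid hormone inside the cell, lay between 23.4 and 65.4 CPM in BAT, with a median of 28.3, and between 3.32 and 9.15 CPM in IWAT, a log2 fold change of 2.48 ± 0.34 (adjusted p = 0.000381). Ppargc1a, which encodes PGC-1alpha, lay between 62.4 and 92.0 CPM in BAT and between 18.3 and 37.3 CPM in IWAT (1.44 ± 0.25, adjusted p = 0.00145). The groups did not overlap for either gene. Bmp8b, a secreted factor that raises the response to noradrenaline, was at 3.08 to 13.1 CPM in BAT and 0 to 1.01 CPM in IWAT (4.36 ± 0.69, adjusted p = 0.000844). Adrb3, the main beta-adrenergic receptor of adipocytes, was not called, with 228 to 498 CPM in BAT and 23.9 to 308 CPM in IWAT. Of 32 tested genes of adrenergic and cyclic AMP signalling, 2 were higher in BAT and 3 in IWAT, shares near those of all genes (5.48% and 10.3%), and without MR3116 7 and 5 of 34 were. The cyclic AMP phosphodiesterase Pde4d was among the first (2.12 ± 0.46, adjusted p = 0.00619). The lactate receptor Gpr81 and the inhibitory G protein subunit Gnai1 were among the second, at -2.18 ± 0.34 (adjusted p = 0.000844) and -1.27 ± 0.30 (adjusted p = 0.0108).

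Transcription regulators of brown fat were higher in BAT for 6 of 30 tested genes and higher in IWAT for 1, with a median of 0.40, and for 14 and 2 without MR3116. With the block the counts were 4 and 0. The shares of all genes were 5.48% and 10.3%, 14.9% and 18.6%, and 2.48% and 5.33% in the same fits. Ebf2, which marks brown and beige precursors, lay between 38.7 and 66.4 CPM in BAT and between 18.1 and 30.3 CPM in IWAT, without overlap (1.21 ± 0.23, adjusted p = 0.00255). Prdm16, which holds the brown identity, lay between 21.8 and 30.6 CPM in BAT and between 15.3 and 23.1 CPM in IWAT. The groups overlapped for Prdm16, and its difference of 0.56 ± 0.20 was called only without MR3116 (adjusted p = 0.0766 with all 12 libraries and 0.0163 without it). Ppara and Esrra, which turn on oxidative genes, followed the same course. The Ppara difference was 0.88 (adjusted p = 0.0741) with all libraries and 0.73 (adjusted p = 0.0376) without MR3116, and the Esrra difference was 0.98 (adjusted p = 0.0714) and 0.80 (adjusted p = 0.0318).

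Effector genes beside Ucp1 were also higher in BAT. Cidea, a lipid droplet protein of brown adipocytes, lay between 63.8 and 105 CPM in BAT and between 7.59 and 42.7 CPM in IWAT, without overlap (1.5 ± 0.33, adjusted p = 0.00649). Elovl3, which lengthens very long-chain fatty acids, lay between 455 and 1115 CPM in BAT and between 49.8 and 484 CPM in IWAT. Its difference of 1.14 ± 0.42 was not called with all libraries (adjusted p = 0.0849) and was called without MR3116, at 0.91 (adjusted p = 0.01). The thioesterase Acot11, which was 28.6 to 305 CPM in IWAT and 383 to 1036 CPM in BAT, and the droplet protein Plin5, 4.46 to 76.1 and 109 to 160 CPM, differed without overlap. Both calls were lost with the animal as a block, at adjusted p = 0.102 and 0.0995.

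**Figure D3:**
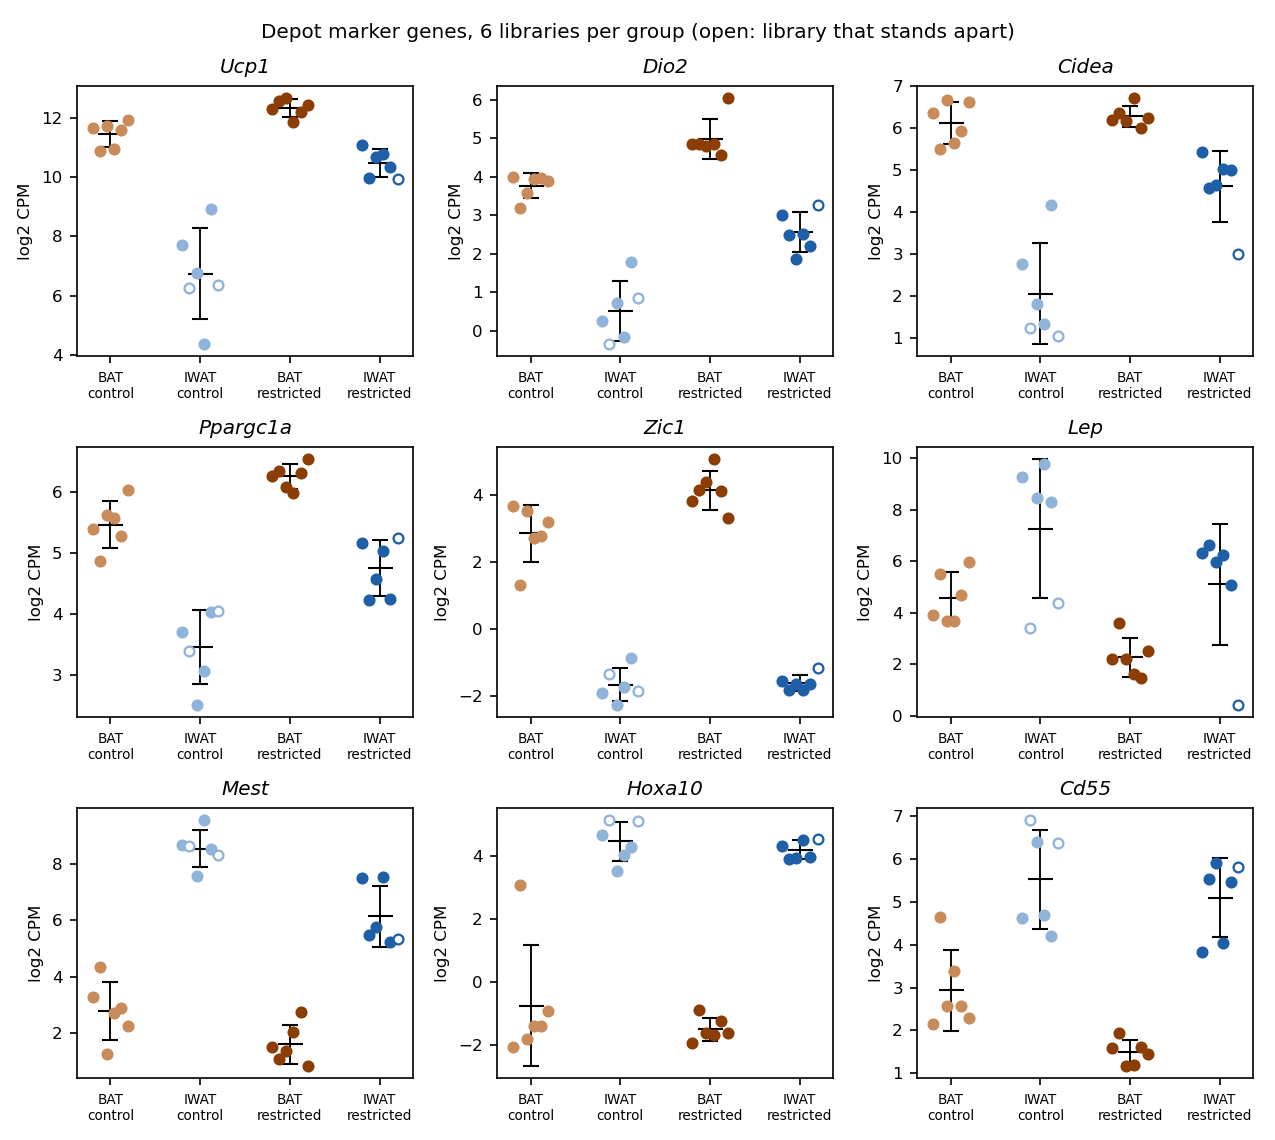
Log2 CPM (prior count 2) of 9 depot genes in the 24 libraries by depot and diet, with the mean and SD of each group, and open symbols for the 3 IWAT libraries that stood apart. On the restricted diet BAT lies above IWAT for Ucp1, Dio2, Cidea, Ppargc1a and Zic1 and below it for Mest, Hoxa10 and Cd55, while Lep overlaps through 1 IWAT library.

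Promoter sequence was read for the genes called higher in BAT, since cyclic AMP reaches many brown fat genes through the palindrome TGACGTCA. RefSeq's promoter table (GRCm38.p6) held 405 of the 586 genes, and 14 of these (3.46%) had the element in the 250 bases before the start, on either strand. It was in 3.18% of the 7482 tested genes with an entry, in 2.31% of those higher in IWAT and in 1.77% of all 27025 genes in the table, so the share in BAT genes was near that of the tested genes. The sequence AAGGTCA, which binds estrogen-related receptors, was in 17 of the 405 BAT genes (4.2%) and in 3.42% of the tested genes. It was in 3.33% of those higher in IWAT and in 4.7% of all genes in the promoter table, above the share in BAT genes. The 3 promoters below are shown because Dio2, Mdh2 and Ndufb2 belong to the thermogenic, tricarboxylic acid cycle and complex I lists and hold the palindrome, which is in capitals; a match is not a measured binding site. The Dio2 window is chr12:90739039-90739288 on the minus strand, the Mdh2 window chr5:135778399-135778648 on the plus strand and the Ndufb2 window chr6:39592315-39592564 on the plus strand, each written 5′ to 3′ and ending at the base before the start, with the element ending 88, 120 and 7 bases before it.
Dio2: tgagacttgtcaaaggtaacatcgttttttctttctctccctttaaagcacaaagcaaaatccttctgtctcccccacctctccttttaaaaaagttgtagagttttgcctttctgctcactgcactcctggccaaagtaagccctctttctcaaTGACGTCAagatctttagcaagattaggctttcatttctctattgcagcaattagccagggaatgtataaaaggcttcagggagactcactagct
Mdh2: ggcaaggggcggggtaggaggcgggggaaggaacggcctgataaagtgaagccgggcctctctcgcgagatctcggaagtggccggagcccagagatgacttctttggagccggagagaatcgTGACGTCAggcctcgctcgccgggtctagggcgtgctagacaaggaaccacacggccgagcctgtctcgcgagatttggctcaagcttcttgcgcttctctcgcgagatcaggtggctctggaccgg
Ndufb2: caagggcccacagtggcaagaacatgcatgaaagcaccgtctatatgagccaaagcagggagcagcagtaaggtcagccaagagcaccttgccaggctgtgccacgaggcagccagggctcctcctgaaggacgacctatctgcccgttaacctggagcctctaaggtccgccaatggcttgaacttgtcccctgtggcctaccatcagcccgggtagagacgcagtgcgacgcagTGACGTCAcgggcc

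Some respiratory chain genes were higher in BAT, and the counts depended on the fit. Of 31 tested complex I genes, 8 were higher in BAT and 0 in IWAT (median 0.83), and the counts were 20 without MR3116 and 2 with the animal block. Complex III gave 4 of 9 (median 0.99; 7 and 1), complex IV gave 4 of 14 (median 0.82; 8 and 3) and ATP synthase gave 1 of 14 (median 0.70; 5 and 0), all in the BAT direction with 0 higher in IWAT in these counts except 1 complex IV gene without MR3116. For ATP synthase the share with all libraries was near the 5.48% of all genes. Ndufb6, a complex I subunit, lay between 1371 and 2781 CPM in BAT and between 654 and 1019 CPM in IWAT, without overlap (1.13 ± 0.24, adjusted p = 0.00609). Uqcrb of complex III lay between 408 and 648 CPM in BAT and between 206 and 268 CPM in IWAT (1.02 ± 0.21, adjusted p = 0.00432). Sdhb, the iron-sulfur subunit of complex II, lay between 172 and 554 CPM in BAT and between 55.6 and 132 CPM in IWAT (1.71 ± 0.33, adjusted p = 0.00298). None of these 3 overlapped between depots.

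Complex IV has subunits with tissue-specific isoforms. Cox7a1, the heart and brown fat form, lay between 1188 and 3007 CPM in BAT and between 393 and 1385 CPM in IWAT, with overlap, and differed by 1.33 ± 0.33 (adjusted p = 0.0127). Cox8b lay between 43.3 and 65.9 CPM in BAT and between 19.7 and 36.8 CPM in IWAT, without overlap (0.93 ± 0.23, adjusted p = 0.013, 0.0721 with the block), while its widely expressed partner Cox8a differed by 0.72 ± 0.36 and was not called (adjusted p = 0.197). Cox6a2, the striated muscle form, was at 5.61 to 226 CPM in BAT and 0 to 7.18 CPM in IWAT (5.11 ± 1.05, adjusted p = 0.00418) and the summed muscle markers ran from 997 to 16688 CPM over the same BAT libraries. The part of muscle RNA in the Cox6a2 difference was not tested. Its partner Cox6a1 was not called (0.78 ± 0.34, adjusted p = 0.135).

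Of 19 tested genes of the tricarboxylic acid cycle, 4 were higher in BAT and 0 in IWAT (median 0.61), with 13 and 1 without MR3116 and 2 and 0 with the block. Dld, which all the 2-oxoacid dehydrogenases share, lay between 262 and 415 CPM in BAT and between 129 and 205 CPM in IWAT, without overlap (0.97 ± 0.21, adjusted p = 0.00651). Of 28 tested genes of fatty acid oxidation, 2 were higher in BAT and 1 in IWAT (median 0.57), with all libraries a share near the 5.48% of all genes higher in BAT. Without MR3116, 16 were higher in BAT and 1 in IWAT, where 14.9% of all genes were higher in BAT. Acadvl, the very long-chain dehydrogenase, lay between 1866 and 2813 CPM in BAT and between 586 and 1732 CPM in IWAT (0.88 ± 0.27, adjusted p = 0.0397, 0.0771 with the block). Cpt1a, the widely expressed form of the carnitine transferase that admits fatty acids to mitochondria, was the gene higher in IWAT, with 10.8 to 21.1 CPM in BAT and 32.1 to 107 CPM in IWAT (-1.66 ± 0.34, adjusted p = 0.00415). Its muscle form Cpt1b was not called (-0.34 ± 0.56, adjusted p = 0.732).

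Mitochondrial ribosomal protein genes were higher in BAT for 8 of 74 tested and in IWAT for 0 (median 0.47), with 25 called without MR3116 and 2 with the block. The shares of all genes higher in BAT in the same fits were 5.48%, 14.9% and 2.48%, so the count with the block was near its share. Of 38 tested genes of the cytosolic ribosome, 0 were higher in BAT and 2 in IWAT (median -0.43), a smaller share than the 10.3% of all genes, and 0 of 40 and 11 of 40 without MR3116. The mean log2 CPM of the cytosolic ribosome list was 6.94, 6.93 and 6.67 in MR3102, MR3104 and MR3113 of IWAT, the libraries with the high B cell sums, 4.58 to 6.15 in the other 3, and 5.80 to 6.21 in BAT. The part of lymphoid RNA in it was not tested. Mrpl3 lay between 45.3 and 90.3 CPM in BAT and between 16.7 and 35.9 CPM in IWAT, without overlap (1.18 ± 0.25, adjusted p = 0.00609, 0.0559 with the block). Among mitochondrial carriers, the heart and muscle ADP/ATP carrier Slc25a4 was higher in BAT (942 to 2143 CPM against 410 to 651 CPM, 1.27 ± 0.27, adjusted p = 0.00599), and its widely expressed partner Slc25a5 was not called (0.29 ± 0.20, adjusted p = 0.368). The dicarboxylate carrier Slc25a10, which supports lipid synthesis in white fat, was higher in IWAT (3.84 to 18.4 CPM against 48.8 to 87.1 CPM, -3.25 ± 0.38, adjusted p = 0.000168). Slc25a44, a branched-chain amino acid carrier, was higher in BAT without overlap (173 to 561 CPM against 103 to 150 CPM, 1.05 ± 0.31, adjusted p = 0.0327, 0.106 with the block).

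Glycolytic genes were higher in BAT for 8 of 20 tested and in IWAT for 0 (median 1.21), with 16 and 1 without MR3116 and 5 and 0 with the block. Several of these are muscle isoforms, such as Eno3 (5.45 to 71.1 CPM in BAT) and Pfkm (12.8 to 157 CPM in BAT, adjusted p = 0.0476, 0.21 with the block), and the library with the least muscle signal held the lowest Eno3. Pfkl, the liver form of phosphofructokinase, lay between 550 and 1707 CPM in BAT and between 34.6 and 390 CPM in IWAT, without overlap (1.59 ± 0.47, adjusted p = 0.0335). Ldhb, which favours lactate use, lay between 7.91 and 16.7 CPM in BAT and between 1.12 and 4.2 CPM in IWAT, also without overlap (1.97 ± 0.32, adjusted p = 0.0011). In MR3104 of BAT, where muscle signal was lowest, the summed glycolysis genes were at 23889 CPM, inside the BAT range of 21821 to 33553 CPM, while the mean log2 CPM of the glycolysis list was lowest there, at 7.18 against 7.47 to 7.88 in the other BAT libraries. The sums in IWAT ran from 9269 to 18702 CPM. In the creatine cycle, a futile cycle of thermogenic fat, 3 of 7 tested genes were higher in BAT and 1 in IWAT, where 5.48% and 10.3% of all genes were. Its sum in MR3104 of BAT was 376 CPM, against 1936 to 5584 CPM in the other BAT libraries and 111 to 450 CPM in IWAT. The highest was in MR3113 of BAT, which also held the highest muscle sum, 16688 CPM. Both sums ranked the restricted BAT libraries in the same order, and the part of muscle RNA was not tested. Ckmt2, mitochondrial creatine kinase, ran from 17.1 to 709 CPM in BAT and from 1.4 to 9.15 CPM in IWAT (5.78 ± 0.81, adjusted p = 0.000401). The creatine transporter Slc6a8 varied less, with 20.5 to 36.3 CPM in BAT and 9.16 to 13.3 CPM in IWAT (1.33 ± 0.22, adjusted p = 0.000999).

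Genes of lipid handling were called in both directions. Fatty acid synthesis had 2 genes higher in BAT and 2 in IWAT of 23 tested. Lipolysis and lipid droplet genes had 4 and 1 of 18, and fatty acid uptake and binding 2 and 3 of 20. The shares of all genes were 5.48% and 10.3%. Without MR3116 the counts were 7 and 3 of 23, 5 and 3 of 19, and 6 and 3 of 20, against 14.9% and 18.6%. With the block they were 1 and 2, 1 and 1, and 1 and 2, against 2.48% and 5.33%. In triglyceride synthesis, 1 of 18 tested genes was higher in BAT, near the 5.48% of all genes, and 1 in IWAT, with 7 and 1 without MR3116 and 2 and 1 with the block. The 2 called with all libraries were the glycerol-3-phosphate acyltransferases Gpam and Agpat9. Gpam lay between 54.1 and 122 CPM in BAT and between 11.8 and 41.1 CPM in IWAT (1.66 ± 0.31, adjusted p = 0.00233), and Agpat9 between 6.09 and 9.53 CPM in BAT and between 24.3 and 57.8 CPM in IWAT (-2.36 ± 0.26, adjusted p = 7.73e-05). The groups did not overlap for either. Among acyl-CoA synthetases, Acsl3 was higher in BAT (1.75 ± 0.30, adjusted p = 0.00131) and Acsl1 was not called (0.04 ± 0.35, adjusted p = 0.951). Acsl5 was called at 1.39 ± 0.44 (adjusted p = 0.0441, 0.095 with the block), with 623 to 5416 CPM in BAT and 543 to 1349 CPM in IWAT. In fatty acid synthesis, the carbohydrate-response factor Mlxipl was higher in BAT (0.99 ± 0.23, adjusted p = 0.0105), and the desaturases Fads1 and Fads3 were higher in IWAT (-1.20 ± 0.27, adjusted p = 0.00788, and -2.63 ± 0.36, adjusted p = 0.000368). Scd1, the stearoyl-CoA desaturase whose fall in liver marks methionine restriction, was abundant in both depots, at 18889 to 27074 CPM in BAT and 21750 to 45240 CPM in IWAT. Its difference of -0.51 ± 0.27 was not called with all libraries (adjusted p = 0.233) and was called without MR3116, at -0.61 (adjusted p = 0.0254).

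For other lipid genes the value depended on MR3116 of IWAT. Gyk, glycerol kinase, lay between 311 and 803 CPM in BAT and between 106 and 502 CPM in IWAT. Its difference was 1.05 ± 0.39 (adjusted p = 0.084), 1.43 without MR3116 (adjusted p = 0.00336), and was called with the block (adjusted p = 0.043). Pparg, the master factor of adipocytes, was at 6694 CPM in MR3116 against a group median of 385 CPM, and its difference was -1.44 ± 0.77 with it (adjusted p = 0.232) and 0.51 without it (adjusted p = 0.0836). Fabp4, a fatty acid binding protein of all adipocytes, differed by -0.66 ± 0.37 (adjusted p = 0.251), and its relative Fabp5 was higher in IWAT without overlap (9.37 to 25.3 CPM against 31.7 to 57.0 CPM, -1.48 ± 0.29, adjusted p = 0.00329).

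White adipocyte hormones and markers were higher in IWAT for 13 of 23 tested genes and in BAT for 0, with a median of -1.36. Without MR3116 the counts were 18 and 1 of 25. Mest, an imprinted gene of growing white adipocytes, lay between 1.45 and 6.43 CPM in BAT and between 37.3 and 185 CPM in IWAT, without overlap (-4.90 ± 0.59, adjusted p = 0.000168). Lep differed by -3.50 ± 0.72 (adjusted p = 0.00431, 0.0564 with the block). Cfd, which encodes adipsin, lay between 6.91 and 33.6 CPM in BAT and between 98.4 and 475 CPM in IWAT (-3.48 ± 0.49, adjusted p = 0.00041), and carbonic anhydrase Car3 between 244 and 791 CPM in BAT and between 1418 and 6798 CPM in IWAT (-2.79 ± 0.42, adjusted p = 0.0006). Both were without overlap. Lbp, a lipopolysaccharide binding protein secreted by adipocytes, lay between 2.92 and 5.73 CPM in BAT and between 22.1 and 55.7 CPM in IWAT (-3.25 ± 0.31, adjusted p = 4.74e-05). Adipoq, which encodes adiponectin, lay between 1845 and 3567 CPM in BAT and between 2690 and 8321 CPM in IWAT, and was called only without MR3116 (-0.95 ± 0.31, adjusted p = 0.0548, against -0.69 and 0.0275). Of 20 pan-adipocyte genes, 0 were higher in BAT and 3 in IWAT, with a median of -0.13, and 2 and 5 without MR3116. Of 6 tested beige markers, 1 was higher in BAT and 2 in IWAT (0 and 1 with the block), and Klhl13 led the second (-2.76 ± 0.38, adjusted p = 0.000388). Over all genes, 5.48% were higher in BAT and 10.3% in IWAT, 14.9% and 18.6% without MR3116, and 2.48% and 5.33% with the block. The pan-adipocyte counts were near these shares, and 6 beige markers are too few to set against them.

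Of 18 tested genes of serine and asparagine synthesis and the stress response, 0 were higher in BAT and 3 in IWAT (median -0.01), with 2 and 4 without MR3116 and 0 and 2 with the block. Asns, asparagine synthetase, lay between 154 and 317 CPM in BAT and between 108 and 371 CPM in IWAT (0.06 ± 0.32, adjusted p = 0.924). Fgf21, the fasting and stress hormone, reached only 1.45 CPM in BAT and 2.38 CPM in IWAT and was not tested. Psat1, an enzyme of serine synthesis, was among the 3, with 2.26 to 9.83 CPM in BAT and 29.8 to 67.2 CPM in IWAT, without overlap (-3.21 ± 0.41, adjusted p = 0.00024). In the methionine cycle and transsulfuration, 3 of 28 tested genes were higher in BAT and 4 in IWAT, with 4 and 10 without MR3116 and 1 and 3 with the block. For comparison with both lists, 5.48% of all genes were higher in BAT and 10.3% in IWAT. The shares were 14.9% and 18.6% without MR3116 and 2.48% and 5.33% with the block. Cth, the enzyme that makes cysteine from cystathionine, lay between 2.09 and 3.23 CPM in BAT and between 5.88 and 30.8 CPM in IWAT, without overlap (-2.34 ± 0.43, adjusted p = 0.00218). Ahcyl1, a relative of the S-adenosylhomocysteine hydrolase, lay between 462 and 1309 CPM in BAT and between 212 and 436 CPM in IWAT (1.36 ± 0.28, adjusted p = 0.00441). The liver enzyme Bhmt was higher in IWAT (0.154 to 2.92 CPM against 2.82 to 150 CPM, -5.07 ± 1.07, adjusted p = 0.00524), beside the hepatocyte markers, whose sum in IWAT ran from 342 to 13577 CPM and in BAT from 57.9 to 203 CPM.

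Matrix genes were higher in IWAT. Of 18 tested collagens, 11 were higher in IWAT and 1 in BAT (median -1.64), and of 45 other matrix genes 20 were higher in IWAT and 0 in BAT (median -1.14; 31 without MR3116 and 12 with the block). Col3a1 lay between 42.7 and 123 CPM in BAT and between 273 and 447 CPM in IWAT (-1.96 ± 0.28, adjusted p = 0.000476), and Col15a1, a basement membrane collagen, between 16.8 and 67.1 CPM in BAT and between 137 and 659 CPM in IWAT (-3.33 ± 0.46, adjusted p = 0.000381). The metalloproteinase inhibitor Timp2 lay between 20.1 and 54.1 CPM in BAT and between 87.8 and 140 CPM in IWAT (-1.96 ± 0.27, adjusted p = 0.000388). None of the 3 overlapped. Markers of adipocyte progenitors and stroma were higher in IWAT for 7 of 22 tested and in BAT for 1 (median -1.0, with 13 and 2 without MR3116 and 3 and 0 with the block). Cd55 and Dpp4, which mark early progenitors of the interstitium, were at 1.92 to 3.59 and 0.961 to 2.52 CPM in BAT and at 13.8 to 59.4 and 6.17 to 29.4 CPM in IWAT, with log2 fold changes of -3.93 ± 0.41 (adjusted p = 6.07e-05) and -3.49 ± 0.44 (adjusted p = 0.000227).

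Macrophage markers were higher in IWAT for 14 of 21 tested genes and higher in BAT for 1 (median -1.96). The mean log2 CPM of the macrophage markers was 4.39, 4.32 and 4.40 in MR3102, MR3104 and MR3113 of IWAT, which also held the high B and T cell sums, 2.52 to 3.32 in the other 3, and 1.60 to 2.01 in BAT. By summed CPM, the measure used for the other cell types, the order was reversed. The macrophage sum had a median of 6320 CPM in BAT (3757 to 98996) and 4017 CPM in IWAT (1083 to 5033). It includes Ctsd, whose BAT median was 6185 CPM. Cd209f, a lectin of resident macrophages, lay between 3.07 and 10.6 CPM in BAT and between 29.4 and 67.8 CPM in IWAT, without overlap (-3.25 ± 0.36, adjusted p = 0.000105). Ctss, a lysosomal protease, lay between 1.84 and 6.26 CPM in BAT and between 13.8 and 137 CPM in IWAT (-3.92 ± 0.56, adjusted p = 0.000426). The member higher in BAT was Ctsd, another lysosomal protease, which was named after its values were seen. Its call (2.85 ± 0.87, adjusted p = 0.038) moved with library MR3116 of BAT, which held 98858 CPM where the BAT median was 6185 CPM, and was lost with the block (adjusted p = 0.412). Cd79a and Ccr7 are members of the B and T cell lists, and so part of the sums that were high in 3 IWAT libraries. Cd79a, a B cell receptor subunit, lay between 4.54 and 541 CPM in IWAT and between 1.33 and 5.84 CPM in BAT (-6.51 ± 1.13, adjusted p = 0.00149), and the chemokine receptor Ccr7 between 1.51 and 148 CPM in IWAT and between 0.261 and 0.979 CPM in BAT (-6.85 ± 1.14, adjusted p = 0.00115).

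By the size of the change, 9 of the 10 leading genes on the BAT side after the rule on abundance were Klhl31, Tnnc1, Tnnt1, Atp2a1, Mb, Rpl3l, Myot, Trdn and Pgam2, all known from striated muscle, with log2 fold changes of 5.85 to 7.09, and the other was Zic1. By the smallest p, leading genes were less tied to muscle. Mapt, the tau protein, lay between 80.9 and 184 CPM in BAT and between 7.88 and 17 CPM in IWAT (3.12 ± 0.29, adjusted p = 3.95e-05). Rspo4, a Wnt agonist, lay between 14.7 and 21.1 CPM in BAT and between 0.446 and 3.22 CPM in IWAT (3.29 ± 0.35, adjusted p = 7.02e-05), and Gas1, a Hedgehog co-receptor, between 35.8 and 74.4 CPM in BAT and between 6.47 and 11.4 CPM in IWAT (2.36 ± 0.27, adjusted p = 0.000137). On the IWAT side, the smallest p values after Hoxa10 included the growth factor Fgf10, at 1.82 to 2.61 CPM in BAT and 20.4 to 52.7 CPM in IWAT (-4.04 ± 0.33, adjusted p = 2.19e-05). The short-chain fatty acid receptor Ffar2 was at 1.6 to 3.36 CPM in BAT and 14.1 to 63.9 CPM in IWAT (-4.05 ± 0.37, adjusted p = 3.95e-05), and the inflammatory caspase Casp4 at 0.28 to 0.532 and 4.54 to 8.37 CPM (-3.85 ± 0.31, adjusted p = 2.19e-05). All 6 genes were called with the block, and their lack of overlap was a condition of being named.

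The depots were compared in the same way on the control diet. Of 10955 genes tested there, 1107 were higher in BAT (10.1%) and 1695 in IWAT (15.5%), and without CON3106 and CON3115 of IWAT the counts were 1761 (15.4%) and 2030 (17.7%) of 11468. Library CON3106 of BAT held 8.35 CPM of Hoxa10, against 0 to 0.189 CPM in the other control BAT libraries. It also had the lowest Zic1 of control BAT, 2.36 CPM. Its B cell sum was 607 CPM against 10.4 to 16.7 CPM, and its hepatocyte sum 6698 CPM against 67.3 to 221 CPM. Without CON3106 of BAT, 1067 of 11063 genes were higher in BAT and 1813 in IWAT. Which diet gave more calls depended on the fit, with 2802 on control and 1682 on restriction by edgeR, and 3941 and 4438 by limma voom with quality weights. Of the 1107 genes higher in BAT on the control diet, 378 (34.1%) were also called on the restricted diet, which is 64.5% of the 586 called there. Of the 1695 higher in IWAT, 770 (45.4%) were called on both diets, which is 70.3% of the 1096. Without the 3 libraries that stood apart, the shared genes were 1001 (56.8% of 1761 and 61.4% of 1631) and 1223 (60.2% of 2030 and 59.7% of 2047). Signs rarely changed: of 1100 genes higher in BAT on control and tested on both diets, 1080 (98.2%) were in the BAT direction on the restricted diet, where 47.7% of all genes were, and 0 were called the other way. The same held for 1522 of 1554 genes (97.9%) higher in IWAT. A gene called on 1 diet alone is not shown to differ between diets.

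The median depot difference of the oxidative lists lay nearer 0 on the restricted than on the control diet. Over genes tested on both diets, the thermogenic median was 1.05 on the restricted and 2.78 on the control diet, complex I 0.83 and 1.69, complex III 0.99 and 2.06, the tricarboxylic acid cycle 0.61 and 1.94, and fatty acid oxidation 0.57 and 1.85. The median over all genes was -0.04 and -0.06. White adipocyte markers had medians of -1.36 and -2.77, and collagens -1.64 and -2.19. Progenitor and macrophage markers had about the same medians on the diets, -1.0 and -0.95 for the first and -1.96 and -1.87 for the second. No list median was tested for a difference between diets. The test below is of single genes, so it cannot decide whether a median moved.

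**Figure D4:**
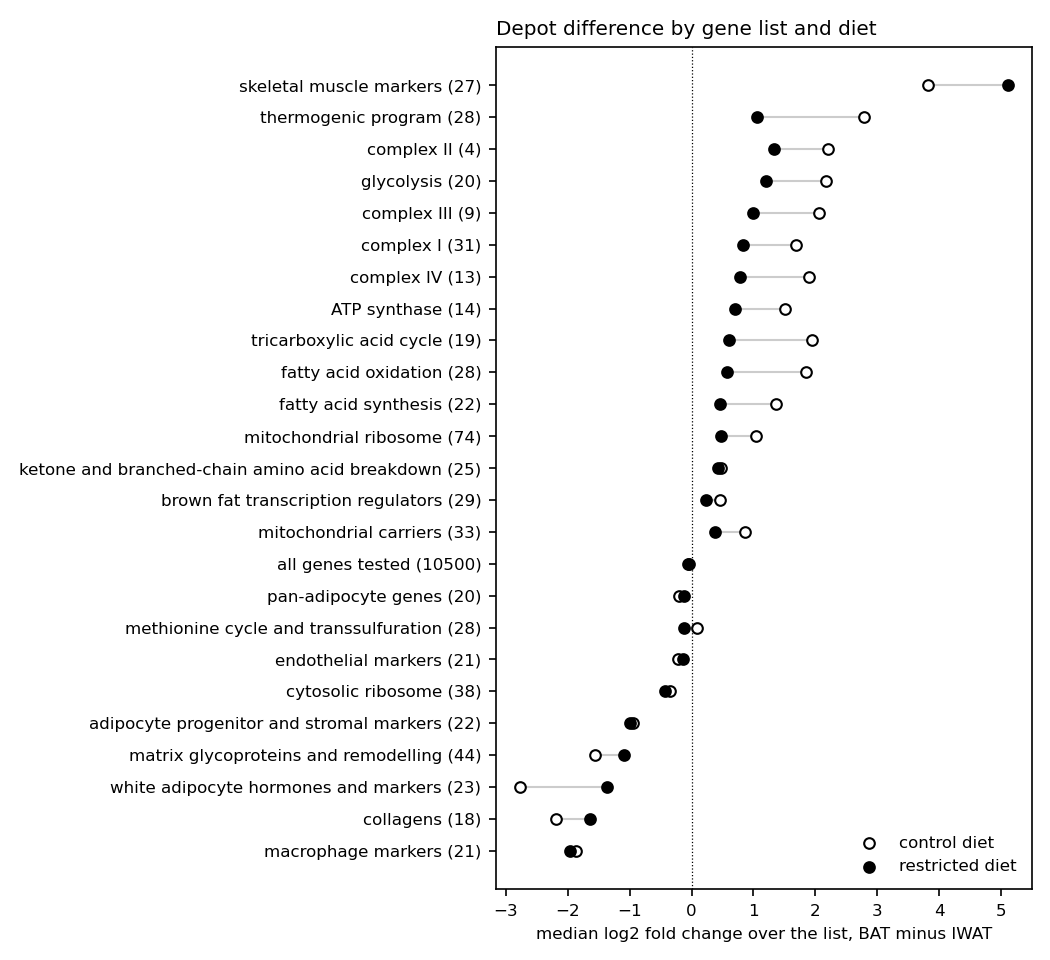
Median log2 fold change of BAT minus IWAT (x axis) for 24 gene lists and for all genes tested, on the control (open) and restricted (filled) diets, with the number of genes tested on both diets in brackets. The thermogenic median moves from 2.78 to 1.05 and the median of all genes from -0.06 to -0.04.

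The levels behind these differences are given by diet. Ucp1 in IWAT was at 20.2 to 492 CPM on the control diet, with a median of 95.1, and at 980 to 2190 CPM on the restricted diet, without overlap, while BAT was at 1893 to 3894 CPM and 3716 to 6534 CPM. The log2 depot difference in Ucp1 was 4.10 ± 0.65 on control (adjusted p = 0.00163) and 1.79 on restriction. Cidea in IWAT was at 1.8 to 17.6 CPM on control and 7.59 to 42.7 CPM on restriction, and in BAT at 45.4 to 101 CPM and 63.8 to 105 CPM. Dio2 in IWAT was at 0.392 to 3.16 CPM and 3.32 to 9.15 CPM, and in BAT at 8.99 to 15.8 CPM and 23.4 to 65.4 CPM, without overlap between diets in either depot, and its log2 depot difference was 3.26 and 2.48. Lep was lower on restriction in BAT, with medians of 20.1 and 4.31 CPM, and in IWAT, with medians of 332 and 68.7 CPM, and its log2 depot difference was -3.71 on control. Changes between diets within a depot were not tested here.

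**Figure D5:**
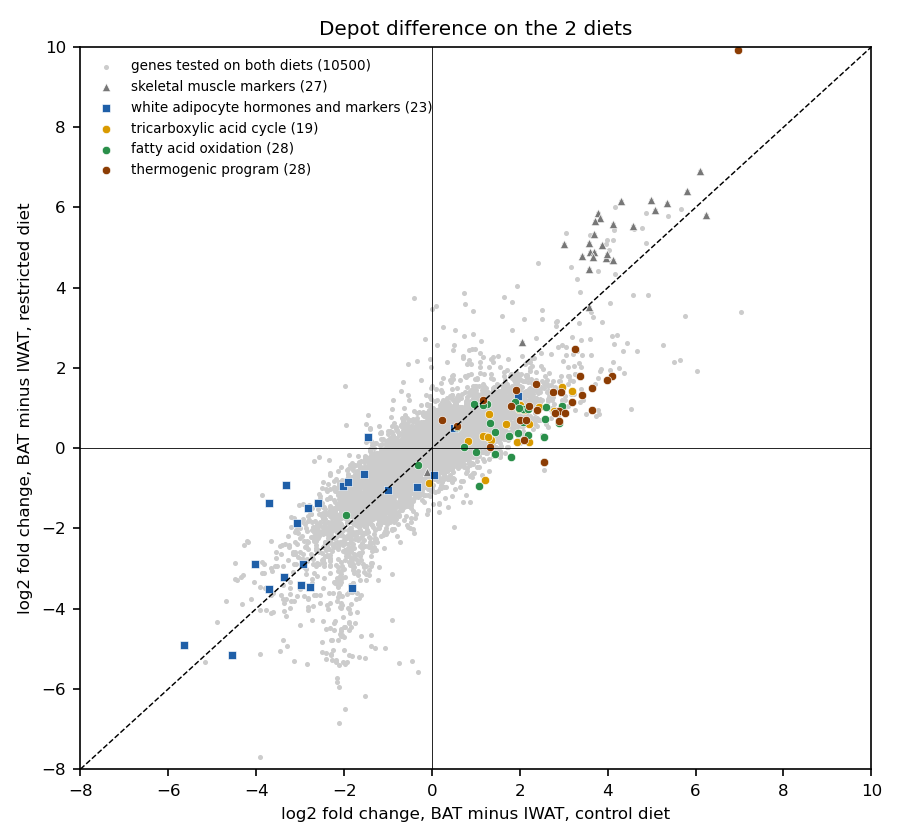
Log2 fold change of BAT minus IWAT on the control diet (x axis) against the restricted diet (y axis) for the 10500 genes tested on both, with 5 gene lists coloured and the line of equality dashed. Most thermogenic, fatty acid oxidation and tricarboxylic acid cycle genes lie right of the vertical axis and below the line, and 27 muscle markers lie mostly above it.

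Tested gene by gene, 3 of 11884 genes had a depot difference that differed between diets (0.0252%), while 783 had an unadjusted p under 0.05. Lgr6, a receptor for R-spondins, was at 26.7 to 46.5 CPM in BAT and 2.01 to 14.7 CPM in IWAT on restriction, and at 11.6 to 45.3 CPM and 0 to 0.962 CPM on control. Its depot difference was smaller on the restricted diet by 4.13 on the log2 scale (-4.13 ± 0.67, adjusted p = 0.0139). The size of that change rests on few counts, since 3 counts in control IWAT is 0.423 to 0.614 CPM before TMM scaling. Endou, a poly(U)-specific endoribonuclease, was at 5.77 to 10.8 CPM in control IWAT and 1.34 to 4.35 CPM in restricted IWAT, with 1.32 to 1.75 CPM and 1.76 to 2.61 CPM in BAT (2.33 ± 0.36, adjusted p = 0.0139). D3Bwg0562e, which the RefSeq gene table lists as an older name of Plppr4, was at 2.34 to 12.2 CPM in control IWAT and 0.223 to 0.84 CPM in restricted IWAT, with 0.142 to 0.999 CPM and 0.419 to 0.93 CPM in BAT (3.49 ± 0.61, adjusted p = 0.0286). D3Bwg0562e was near the floor in BAT on both diets and in restricted IWAT, so its value also rests on few counts. With the animal as a block, 0 genes were called by edgeR and 598 had an unadjusted p under 0.05, while DESeq2 called 70 and limma voom with quality weights 57 without the block.

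Of the thermogenic list, 0 of 30 tested genes were called in this test, and the median of the change was -1.47 against -0.09 over all genes. The change was below 0 for 26 of the 30, and for 6714 of all 11884 tested genes. Ucp1 changed by -2.33 ± 0.65 (adjusted p = 0.293). The 3 next genes were Hadhb, a subunit of the mitochondrial trifunctional protein (-2.30 ± 0.44, adjusted p = 0.0697), the mitochondrial protein Letmd1 (-2.25 ± 0.44, adjusted p = 0.0766) and Cox8b (-1.98 ± 0.40, adjusted p = 0.108). The outcome depended on the libraries in the fit. Leaving out 1 library gave 1 to 4 calls, except for CON3114 of IWAT. That library did not stand apart (correlation 0.915). It held the highest Ucp1 and the highest thermogenic sum (3325 CPM) of control IWAT, so a fit without it widens their control depot difference by construction. The calls from that fit are therefore not separate support. Without CON3114 of IWAT, which had the highest Ucp1 of control IWAT (492 CPM) and the most muscle signal (4133 CPM), 39 of 12126 genes were called (0.322%), 4 with a larger and 35 with a smaller BAT-minus-IWAT value on restriction, and they included Ucp1 (adjusted p = 0.00961), Cidea (adjusted p = 0.00823), Hadhb (adjusted p = 0.00544), Acadvl (adjusted p = 0.00963) and Cox8b (adjusted p = 0.00722). Without the 3 libraries that stood apart, 10 of 12432 were called (0.0804%), Lgr6 (adjusted p = 0.0139) and Endou (adjusted p = 0.0168) among them, and D3Bwg0562e (adjusted p = 0.0541) and Ucp1 (adjusted p = 0.247) were not.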

How the data were processed

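Raw tag counts per RefSeq gene were deposited by the authors as 1 count table for each depot, and per the labels' protocols tags were kept where they mapped uniquely. The submitters' processing notes name mm10 and GRCm38.p1 as builds and DESeq as a tool, and no source used here gives the aligner. The depot tables were joined on 26608 symbols. With R 4.3.3, edgeR 4.0.16 (filterByExpr with a minimum count of 10, TMM scaling, quasi-likelihood test, Benjamini-Hochberg adjusted p of 0.05) was fitted to the 6 BAT and 6 IWAT libraries of each diet, and to all 24 for the difference between diets. The filter kept 10689 genes that hold 99.56% of the counts on the restricted diet. Log2 fold changes are BAT minus IWAT, ± is the standard error, and CPM are raw counts over TMM-scaled library sizes. A count of 3 is 0.443 to 0.572 CPM in restricted IWAT on unscaled library totals, before TMM scaling, for counting error only. The scripts were tested on simulated data. DESeq2 1.42.0 and limma 3.58.1 were alternatives.

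Labels give each mouse number in both depots, so the numbers pair the libraries. Deviations from the depot means of the same restricted mouse had a mean correlation of -0.0276 (-0.0917 to 0.00306), and those of different mice 0.00459. For control mice it was 0.0704 (-0.136 to 0.317) against -0.0136, and 0.213 (0.142 to 0.279) against -0.0707 over the 4 mice whose libraries did not stand apart. The members and lists were chosen with earlier results of these data known. Named genes were, among called genes without overlap and with a mean of at least 20 counts in the higher depot, the 10 with the largest change and the 6 with the smallest p in each direction, then up to 4 members of each list, the 6 with the smallest p between diets, and a list of chosen depot genes and isoform pairs. Some genes are not reported here.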

Additional observations from a re-analysis of the deposited data

Results flagged for a closer look

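Of 281 sets of 6 libraries looked at, 46 held a library far from the other 5 by Dixon's test on log2 CPM, and chance alone gives about 1 in 20. Library MR3116 of IWAT gave 26 of them, beginning with its 11917 detected genes. In that library the values far from the others included Cidea at 7.59, Elovl3 at 49.8, Adrb3 at 23.9, Pde4d at 0, Acot11 at 28.6, Plin5 at 4.46, P2rx5 at 2.23, Hoxc9 at 0 and Tbx15 at 0 CPM. They also included Cox6a1 at 467, Cpt1a at 107, Cpt1b at 0, Mrps2 at 13.2, Ucp2 at 0.446, Pfkl at 34.6, Pfkm at 0.893, Ldha at 12714 and Acsl1 at 248 CPM. The remainder were Fabp3 at 67.2, Pparg at 6694, Lep at 0.893, Pdgfra at 127, Apoe at 31.5, Igf1 at 47.1 and Ctsd at 520 CPM. Library MR3104 of BAT, which held the least muscle signal, stood out for Klhl13 at 0.641, Eno3 at 5.45, Plin1 at 62.5, Atp2a1 at 32.4, Mb at 42.9 and Myh2 at 5.61 CPM. MR3109 of BAT stood out for Ndufa4 at 9.83, Mrps2 at 67.6, Pfkl at 1707, Ppara at 120 and Ctss at 1.84 CPM. For MR3116 of BAT the values were Dio2 at 65.4 and Ctsd at 98858 CPM. For MR3101 of BAT they were Ccl6 at 3.26 and Apoe at 128 CPM, and for MR3102 of BAT Alb at 109 CPM. In IWAT, MR3104 stood out for Slc25a4 at 410, Slc25a10 at 48.8 and Timp2 at 87.8 CPM and MR3109 for Col6a1 at 173 CPM.

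The depot difference of 3 genes differed between the diets by edgeR's interaction test on the log2 scale, by -4.13 for Lgr6, 2.33 for Endou and 3.49 for D3Bwg0562e. With the animal as a block, edgeR called 0 genes (598 at an unadjusted p under 0.05).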

How the results depend on the processing

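The counts of genes moved with the fit while directions were largely kept. On the restricted diet, genes higher in BAT and in IWAT numbered 1242 and 2232 by DESeq2, 2081 and 2357 by limma voom with quality weights, 128 and 401 tested against a log2 fold change of 1, and 1934 were higher in IWAT without a filter. With the replicate block they numbered 265 and 570, of which 257 and 565 were also called without it. Leaving out each library gave 441 to 1631 and 939 to 2047, the highest of each without MR3116 of IWAT. Alternatives chosen after seeing the data gave 1253 and 1783 (replicate block without the animals of the libraries that stood apart) and 2039 and 2573 (voom without those libraries). On the control diet the counts were 1872 higher in BAT by DESeq2, 1795 by voom (3941 in either direction, against 4438 on the restricted diet), 193 and 289 against a log2 fold change of 1, 1003 higher in IWAT with the replicate block, and 804 to 1263 and 1134 to 1873 leaving out each library. Alternatives added later for control gave 1761 without the libraries that stood apart, 1792 by voom without them and 1677 with the block without their animals, all higher in BAT. For the difference between diets, 70 genes were called by DESeq2, 57 by voom, 0 with the replicate block (598 at an unadjusted p under 0.05), 10 without the libraries that stood apart, 1 with the block without their animals, and 1 to 39 leaving out each library, the lowest without MR3102 of BAT and the highest without CON3114 of IWAT. The cause was not tested. Signs turned for Scd2 (-0.62 with the block without those animals) and Pparg (0.63 by voom with and without those libraries), neither called by edgeR with all libraries, while voom with quality weights called Pparg higher in BAT. Low counts limit Hoxc9, Hoxc10 and Fgf21, and also Lgr6 and D3Bwg0562e in the difference between diets.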
